A study of Mus musculus with 4 samples.

Results

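The 38 genes described here are immediate early genes, those transcribed within minutes of a stimulus without the need for new protein, and they were measured in fetal mouse liver of wildtype and Sox17+/- genotype. They were chosen by name, as the FOS, JUN, EGR, NR4A, KLF and IER families with the phosphatases and other feedback regulators that answer the same stimuli. The choice was made with earlier results of these data known. Each of the 38 had at least 1 probe set naming that gene alone, 68 probe sets in all, and stood by its brightest one, among 18193 genes so represented. Their products fall into a few roles. FOS, JUN, ATF and MAF proteins pair into AP-1 and related transcription factors, EGR, NR4A and KLF proteins bind DNA on their own, and dual-specificity phosphatases, ZFP36 proteins and SOCS3 turn the signal off again. Transcription of many of these genes is driven by MAP kinases acting on SRF with its ternary complex partners and on CREB. In liver these genes are best known from regeneration after partial hepatectomy and from the acute phase response.

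Livers came from fetuses on day 17 of gestation, carried by C57BL/6 dams of 6 to 8 weeks that had been mated with Sox17+/- males older than 3 months of that strain, with the plug counted as day 0.5. The liver was separated from the biliary system before RNA was taken. Wildtype and Sox17+/- fetuses were represented by 2 biological replicates each, with 1 Affymetrix array per replicate, named wildtype 1 and 2 and Sox17+/- 1 and 2 below. The labels name no other allele and no treatment. They do not say if a replicate was a single fetus or pooled, if fetuses shared a litter, what sex they were or how the Sox17 allele was made. The comparison asks which of these genes differ between heterozygous and wildtype liver.

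The values are MAS5 signals on a linear scale, with a mean of 500 on each array after the lowest and highest 2% were set aside. Median signals over the 45101 probe sets lay between 84.7 and 103. Differences below are Sox17+/- minus wildtype on the log2(signal + 16) scale, which understates those of dim genes, and the number of arrays limits their precision. Sox17 itself gave signals of 244 and 264 in wildtype and 139 and 124 in Sox17+/- liver on its brightest probe set. Whether that probe set lies in the altered part of the gene is not known here. The defining hepatocyte genes Alb, Apoa1, Ttr, Afp and Cps1 had signals of 3920 or more on every array. All 5 exocrine pancreas genes found were in the dimmer part of the table, as were 5 of the 6 intestinal ones. Wildtype 1 stood apart in the actin controls, with a ratio of 3' to 5' Actb signal of 1.95 against 1.20 to 1.43 on the other arrays, while that of Gapdh lay between 0.807 and 0.853. Arrays of the same number share a code in the array names of the labels. Those numbered 1 had bioB hybridisation control signals of 1843 and 1365 and highest signals of 56988 and 56860, and those numbered 2 had 609 and 604 and 34407 and 32468. What the code stands for is not stated, and each code holds 1 array of each genotype.

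As a family the immediate early genes had higher signals in Sox17+/- liver, without any of them passing the test. Of the 38, 32 were among the brighter 50% of probe sets that were tested, and 25 of these had a higher mean log2 signal in Sox17+/- liver and 7 a lower one. For 19 of the 32, or 59.4%, both Sox17+/- arrays lay above both wildtype arrays, an order seen in 14.5% of all 11685 tested genes. For 4, or 12.5%, both lay below, against 18.6% of all tested genes. Differences of over 2-fold were found for 6 on the higher side and 0 on the lower, against 0.941% and 0.693% of all tested genes. The 6 include Atf3, which was tested only through its Sox17+/- signals, and Btg2, whose groups overlap. The median difference was 0.43, with a range from -0.96 for Nr4a2 to 2.60 for Atf3, beside a median of -0.02 over all tested genes. Of the 6 too dim to be tested, 3 had both Sox17+/- arrays above wildtype and 0 had both below, and a gene that is bright in 1 genotype alone passes such a filter more easily than one dim in both. Atf3 was the 1 member tested only through its Sox17+/- signals, its wildtype mean lying under the limit, which corresponds to a signal of 84.9. Without it, 18 of 31 members lay above wildtype, or 58.1%, beside 14.3% of the 11279 genes over that limit in both genotypes, and the median stayed 0.43. In these whole-tissue RNA samples fewer cells of a type and less RNA per cell cannot be told apart.

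The limma test gave 0 of the 32 genes an adjusted p under 0.05, as it did for 0% of all tested genes, and the adjusted p was 0.9999 for each of the 32. At an unadjusted p under 0.05, limma gave 7 of them higher and 1 lower, beside 1.61% and 2.54% of all tested genes. The 7 were Fos, Jun, Atf3, Nfkbiz, Ier3, Gadd45b and Zfp36, and the lower one was Nr4a2; Atf3 had to differ to be tested, which leaves 6 on the higher side. Without the array Sox17+/- 1 there were 4 such genes on the higher side and 0 on the lower, beside 0.556% and 1.54% of all tested genes. Among the brighter 25% of probe sets there were 5 of 18 tested members and 0, beside 1.82% and 2.11% of the 6975 genes tested there. The median difference was 0.25 without wildtype 2, and 0.33 to 0.44 without any other array.

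**Figure D1:**
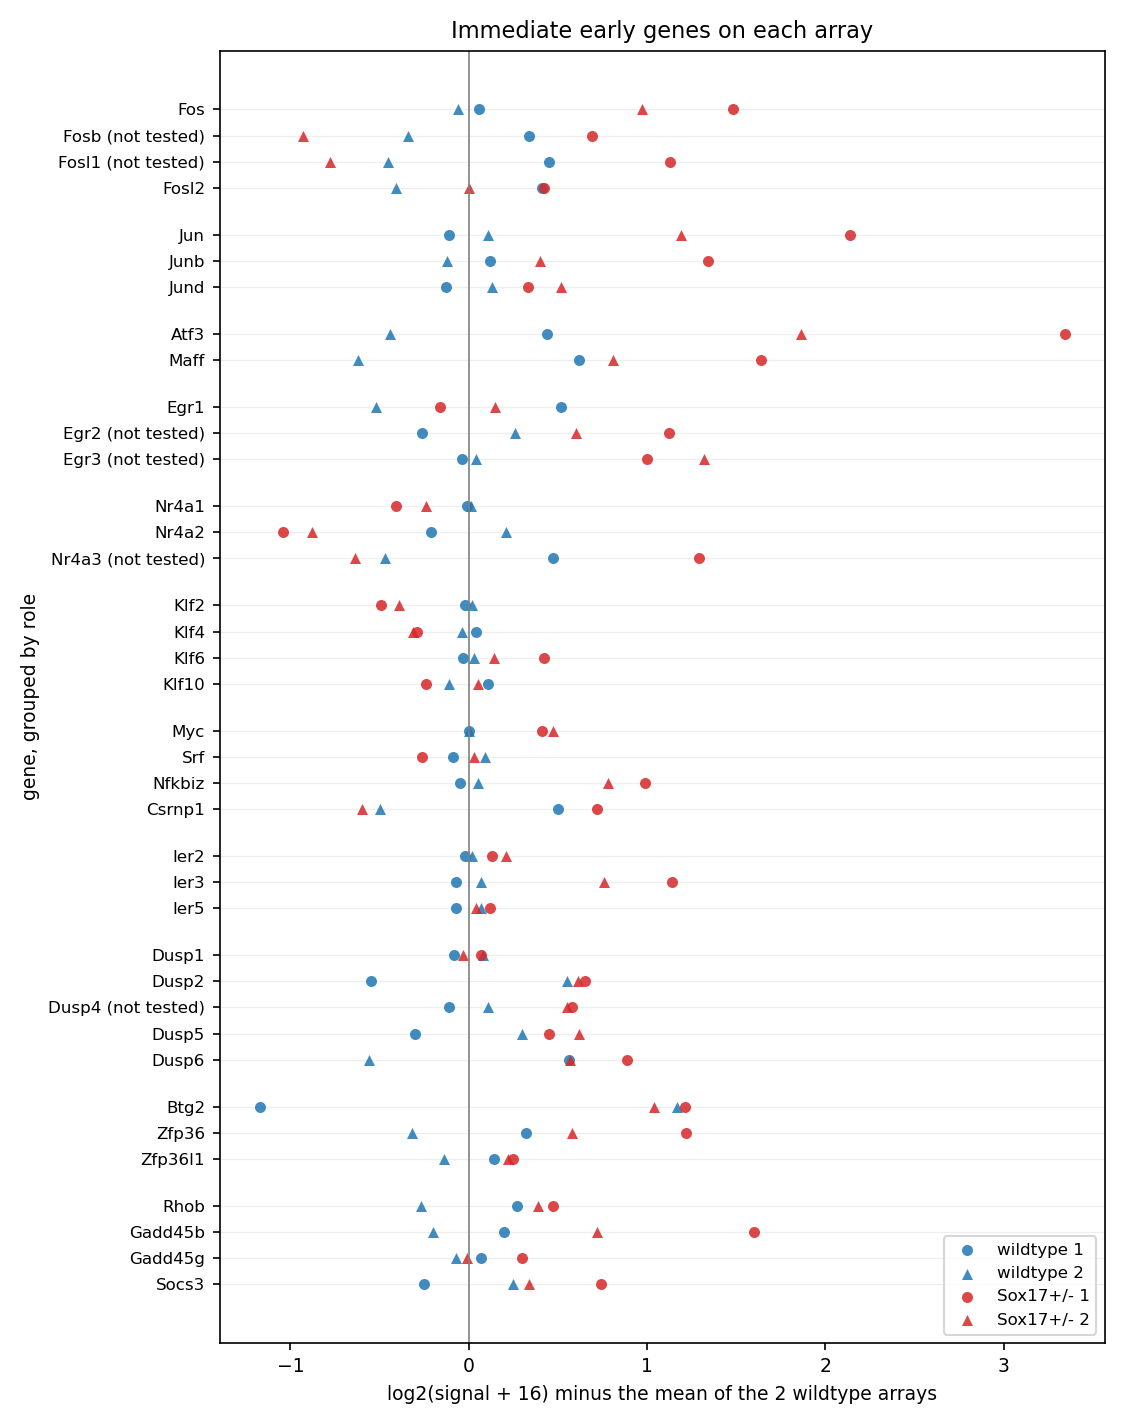
Log2(signal + 16) of each of the 38 immediate early genes on each array, as the difference from the mean of the 2 wildtype arrays (horizontal axis), with genes grouped by role (vertical axis) and 1 symbol per array. Both Sox17+/- arrays lie to the right of both wildtype arrays for 19 of the 32 tested genes and to the left for 4, while the other 9 overlap.

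The promoters of 7 members are shown. Fos, Junb, Atf3, Zfp36 and Dusp5 had higher and Nr4a1 and Nr4a2 lower Sox17+/- signals. These 7 are a chosen selection, and all hold a match to the sites marked below. Jun, Ier3, Gadd45b, Socs3, Jund, Dusp6, Klf6, Rhob and Zfp36l1, also higher, hold none. Each run is the 250 bases before the start site, 5' to 3' on the gene's strand, from RefSeq on GRCm38.p6. Capitals mark matches to the CArG box, the site of SRF, or to TGACG, the core of the CREB site TGACGTCA, on either strand.
Fos: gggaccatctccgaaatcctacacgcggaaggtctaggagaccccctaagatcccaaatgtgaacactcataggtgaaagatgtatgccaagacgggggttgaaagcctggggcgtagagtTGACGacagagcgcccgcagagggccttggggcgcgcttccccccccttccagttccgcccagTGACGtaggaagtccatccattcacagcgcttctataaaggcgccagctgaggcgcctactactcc
Junb: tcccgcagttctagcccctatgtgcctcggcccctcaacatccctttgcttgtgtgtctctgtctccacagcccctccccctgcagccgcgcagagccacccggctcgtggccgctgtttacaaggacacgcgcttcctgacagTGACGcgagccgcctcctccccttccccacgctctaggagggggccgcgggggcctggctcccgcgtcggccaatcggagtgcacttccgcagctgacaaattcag
Atf3: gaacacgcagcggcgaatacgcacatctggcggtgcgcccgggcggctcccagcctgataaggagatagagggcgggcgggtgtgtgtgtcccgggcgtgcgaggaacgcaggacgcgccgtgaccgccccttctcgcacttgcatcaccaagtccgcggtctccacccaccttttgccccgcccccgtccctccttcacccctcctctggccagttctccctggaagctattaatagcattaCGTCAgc
Zfp36: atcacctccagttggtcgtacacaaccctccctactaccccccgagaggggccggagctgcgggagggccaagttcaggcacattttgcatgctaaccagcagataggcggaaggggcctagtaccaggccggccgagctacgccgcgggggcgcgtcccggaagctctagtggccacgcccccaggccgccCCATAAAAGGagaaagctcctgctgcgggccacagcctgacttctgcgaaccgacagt
Dusp5: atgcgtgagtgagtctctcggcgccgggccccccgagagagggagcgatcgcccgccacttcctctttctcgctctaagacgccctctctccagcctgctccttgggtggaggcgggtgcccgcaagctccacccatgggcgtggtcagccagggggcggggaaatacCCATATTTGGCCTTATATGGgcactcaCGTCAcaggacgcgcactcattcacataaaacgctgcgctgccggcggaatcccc
Nr4a1: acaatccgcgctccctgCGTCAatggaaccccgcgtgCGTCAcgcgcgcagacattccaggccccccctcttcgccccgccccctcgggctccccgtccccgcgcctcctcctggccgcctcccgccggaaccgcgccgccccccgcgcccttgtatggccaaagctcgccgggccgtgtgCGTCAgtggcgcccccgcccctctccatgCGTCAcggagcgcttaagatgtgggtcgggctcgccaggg
Nr4a2: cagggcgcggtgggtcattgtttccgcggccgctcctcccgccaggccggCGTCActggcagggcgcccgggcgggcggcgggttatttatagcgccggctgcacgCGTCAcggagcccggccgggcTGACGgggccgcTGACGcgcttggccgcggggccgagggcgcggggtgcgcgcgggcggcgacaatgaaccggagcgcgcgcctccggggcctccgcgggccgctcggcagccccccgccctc
They lie at chr12:85473640-85473889 (plus strand, Fos), chr8:84978749-84978998 (minus, Junb), chr1:191183334-191183583 (minus, Atf3), chr7:28379229-28379478 (minus, Zfp36), chr19:53528895-53529144 (plus, Dusp5), chr15:101266596-101266845 (plus, Nr4a1) and chr2:57124004-57124253 (minus, Nr4a2). The Dusp5 window holds 2 adjoining CArG boxes and the Zfp36 window 1. The Nr4a1 and Nr4a2 windows hold 4 copies of the CREB core each, the Fos window 2 and the Atf3, Junb and Dusp5 windows 1 each. Sites further upstream than these 250 bases, for Fos as for the others, were not searched, so a window without a CArG box does not show that the gene lacks one.

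RefSeq windows from 250 bases before to 50 after a start site were taken for 30 of the 38 genes. They came to 39 in all, since some genes have several, partly overlapping, windows. No window was taken for Egr1, among others, so its promoter was not searched. Member windows on a chromosome that all windows of the table include were left out. A member without a window here may thus have one in RefSeq. The shares and gene counts below leave such members out and do not cover the same chromosomes as the whole table. The core TGACG, also part of every whole site, was present on either strand in 59% of these windows and in 20.8% of all 32851 windows of the table. CArG boxes were present in 17.9% of the member windows and in 1.63% of all. By gene they belonged to 4 of the 30, Dusp5, Egr2, Srf and Zfp36, and overlapping Egr2 windows counted the same box more than once. The whole site TGACGTCA was present in 7.69%, belonging to Btg2, Dusp1 and Maff, and in 1.79% of all. AP-1 sites, TGANTCA, were found in 5.13% against 7.81%. By direction, the core was found for 6 of the 16 matched genes whose Sox17+/- arrays lay above wildtype, for 4 of the 4 that lay below and for 4 of the 7 that overlapped. Base composition was not matched in these shares, and a match is a run of letters, not a measured binding site.

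Among the AP-1 proteins, Fos and all 3 JUN genes had Sox17+/- arrays above wildtype on their brightest probe sets. Fos, the partner that binds DNA only with a JUN protein, had signals of 138 and 127 in wildtype and 398 and 274 in Sox17+/- liver. Its Sox17+/- signals were both higher by more than the wildtype spread (log2 difference 1.22, SE 0.25, limma unadjusted p = 0.0042). Jun, which can pair with itself or with FOS, had 210 and 246 against 1055 and 540.5, and the groups did not overlap (1.66, SE 0.36, limma unadjusted p = 0.0049). A further probe set of Jun went the same way, with a log2 difference of 0.47. Junb, a JUN protein of weaker activity, had 255 and 215 against 615 and 315, with Sox17+/- 1 well above the rest. Jund, the JUN protein present in resting cells, had 2162 and 2609 against 2988 and 3420, a difference of 0.43. Jund's other probe set, too dim to be tested, ran the opposite way, with 67.3 and 74.9 in wildtype and 27.3 and 53.0 in Sox17+/- liver. The log2 differences between arrays numbered 1 were 2.24 for Jun and 1.22 for Junb, and between those numbered 2 they were 1.09 and 0.52.

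The remaining FOS genes did not share this pattern. Fosl2, encoding FRA-2, had overlapping signals of 305 and 165 against 306 and 224. Its other probe set ran the opposite way, with 158 and 212 in wildtype and 111 and 112 in Sox17+/- liver, a log2 difference of -0.64 (SE 0.23, limma unadjusted p = 0.036). Fosb and Fosl1 were too dim to be tested, with 8.46 to 80.4 on every array and the groups overlapping.

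The stress factors Atf3 and Maff gave 2 of the larger differences. Atf3, a repressor and activator of the ATF family induced by many stresses, had signals of 81.1 and 36.7 in wildtype and 707 and 243 in Sox17+/- liver. Both Sox17+/- arrays exceeded both wildtype arrays, but the wildtype signals lay below the median of their arrays. The log2 difference of 2.60 was 2.01 with a pseudocount of 64 and 2.90 with one of 1, so its size is not well set, and no p is given since the gene was tested only through its Sox17+/- arrays. Maff, a small MAF protein that pairs with other basic leucine zipper factors, had 789 and 326 against 1618 and 901. The Maff groups did not overlap, but wildtype 1 was close to Sox17+/- 2 (1.22, SE 0.50, limma unadjusted p = 0.056). Within same-numbered arrays the differences were 2.90 and 2.30 for Atf3 and 1.02 and 1.42 for Maff.

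**Figure D2:**
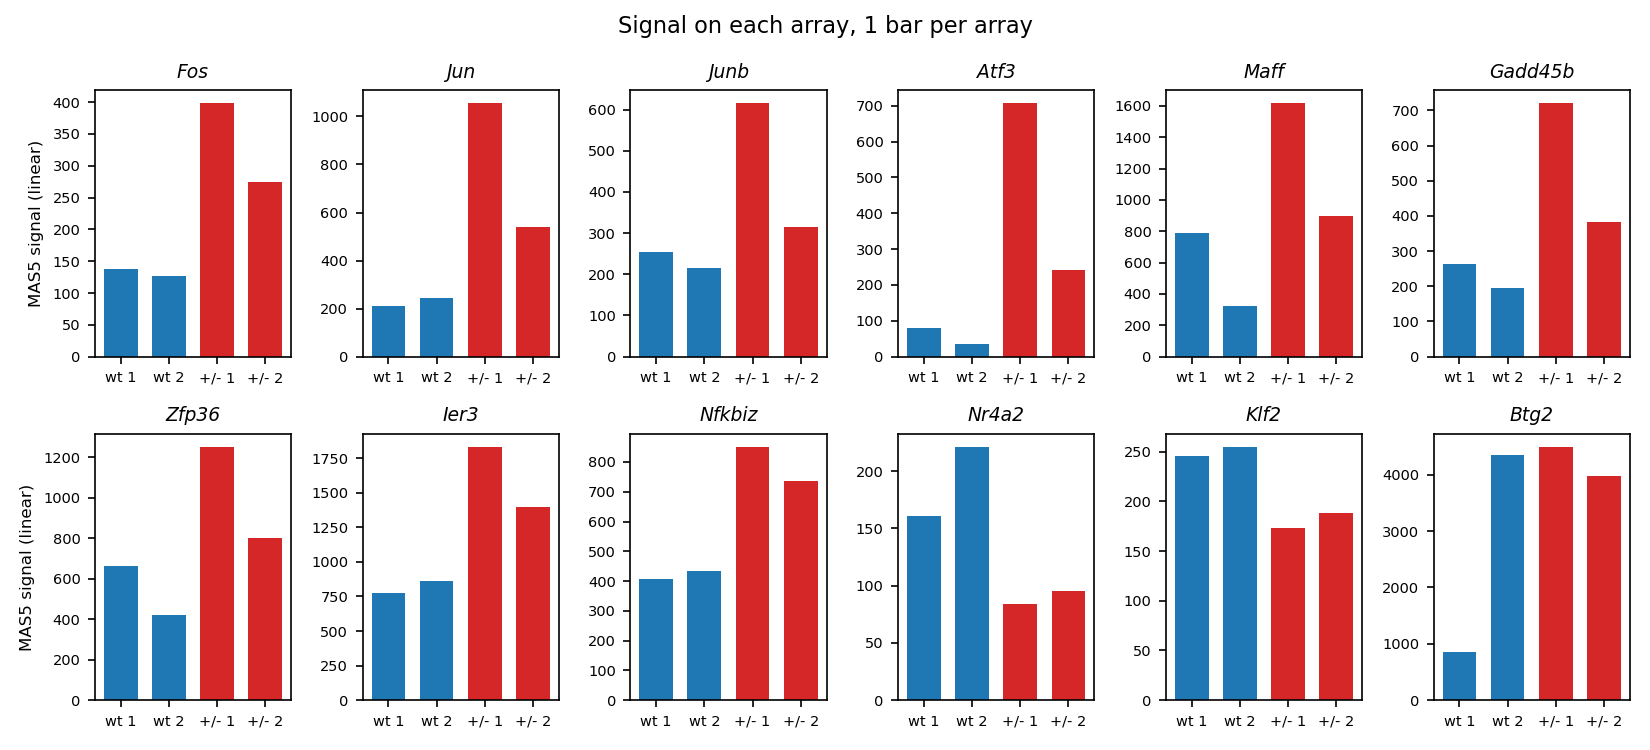
MAS5 signal (linear, vertical axis from 0, scaled separately for each gene) of 12 immediate early genes on wildtype arrays 1 and 2 (blue) and Sox17+/- arrays 1 and 2 (red), 1 bar per array. Sox17+/- 1 is the highest array for the first 9 genes, Nr4a2 and Klf2 are lower on both Sox17+/- arrays, and Btg2 is low on wildtype 1 alone.

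Zinc finger factors of the EGR and KLF families diverged. Egr1, a growth factor-induced activator, had overlapping signals of 1838 and 885 in wildtype and 1143 and 1416 in Sox17+/- liver, with a log2 difference of -0.00 made of -0.68 between arrays numbered 1 and 0.67 between those numbered 2. Egr2 and Egr3, relatives of Egr1, were below the brightness tested. Their Sox17+/- arrays were both above wildtype, at 90.7 and 58.6 against 24.9 and 42.9 for Egr2 and at 87.6 and 113 against 34.3 and 37.1 for Egr3.

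Klf2, a factor induced by blood flow in endothelium, had 246 and 255 in wildtype and 173 and 188 in Sox17+/- liver. Its relative Klf4 had 299 and 283 against 234 and 232, and a further Klf4 probe set was also lower on both Sox17+/- arrays. For both genes the wildtype and Sox17+/- arrays stood apart by more than the spread within either genotype, with log2 differences of -0.44 (SE 0.20) and -0.30 (SE 0.20), neither of which passed limma's test. Of 6 endothelial markers, Pecam1, Kdr and Lyve1 were higher and Tek lower on both Sox17+/- arrays, beside 14.5% and 18.6% of all tested genes. The 6 markers summed to 5369 to 6884 in wildtype and 6862 to 6928 in Sox17+/- liver. Their part in the KLF values was not tested. Klf6 had 676 and 708 against 934 and 763, just above wildtype, and Klf10, induced by TGF-beta, had overlapping signals of 683 to 872.

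The NR4A orphan nuclear receptors, which need no ligand, had lower signals where they were tested. Nr4a2 (NURR1) had signals of 160 and 221 in wildtype and 83.7 and 95.2 in Sox17+/- liver. Both Sox17+/- arrays lay below both wildtype arrays, a log2 difference of -0.96 (SE 0.24, limma unadjusted p = 0.0095). Of its 5 other probe sets, all too dim to be tested, 3 had the same sign and 2 the opposite. Nr4a1 (NUR77) had 127 and 129 against 92.1 and 106, a smaller difference of -0.33. Nr4a3 was not tested, with overlapping signals of 85.9 and 36.8 against 163 and 31.0.

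Of the other regulators of transcription, Nfkbiz and Myc were higher on both Sox17+/- arrays. Nfkbiz encodes a nuclear IkB protein that switches on a secondary set of inflammatory genes, and had 407 and 435 in wildtype against 851 and 735. The genotypes were 0.89 apart on the log2 scale, against gaps of 0.09 and 0.21 within them (SE 0.21, limma unadjusted p = 0.0071). Its 2 other tested probe sets gave 0.80 and -0.01. Myc, the growth-promoting factor, had 1565 and 1558 against 2081 and 2163, with the groups apart (log2 difference 0.44, SE 0.20). Srf, the factor that drives many members, overlapped at 474 and 541 against 422 and 516. Csrnp1 also overlapped, with arrays numbered 1 at 277 and 324 and those numbered 2 at 131 and 120.

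The 3 IER genes, small response proteins of mostly separate function, ranged from a clear separation to none. Ier3, which modulates survival and ERK signalling, had 778 and 865 in wildtype and 1833 and 1398 in Sox17+/- liver (0.95, SE 0.23, limma unadjusted p = 0.0087). Its groups were far apart relative to their spread. Ier2 had 949.9 and 971 against 1049 and 1110, a small but non-overlapping difference of 0.17, and Ier5 overlapped with a difference of 0.08.

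The dual-specificity phosphatases remove phosphate from MAP kinases, and 3 of 4 tested ones had both Sox17+/- arrays above wildtype, each with a wide spread. Dusp6, which is specific for ERK, had 2537 and 1166 against 3199 and 2562, so that wildtype 1 lay just under Sox17+/- 2. Dusp2 had 103 and 239 against 258 and 249, and only wildtype 1 was low. Dusp5, the nuclear ERK phosphatase, had 89.7 and 145 against 162 and 184. Dusp1, the classical stress-induced member, overlapped at 2280 and 2546 against 2530 and 2367. Dusp4 was not tested, with 51.9 and 63.0 against 93.5 and 91.4.

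Genes that limit messenger RNA or growth differed in part. Zfp36 (tristetraprolin), which destabilises AU-rich transcripts, had 663 and 423 in wildtype and 1252 and 801 in Sox17+/- liver, with a log2 difference of 0.90 between both the arrays numbered 1 and those numbered 2 (SE 0.34, limma unadjusted p = 0.043). Its relative Zfp36l1 had 4068 and 3367 against 4396 and 4314, 0.23 higher. Btg2, an antiproliferative cofactor of deadenylation, had 851 on wildtype 1 and 4358 on wildtype 2 against 4498 and 3978. Its log2 difference of 1.12 was -0.04 without wildtype 1, and its other probe set gave 1991 and 1999 against 2164 and 2186, a difference of 0.12.

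Gadd45b, a stress-responsive growth arrest gene, had 263 and 195 in wildtype and 721 and 383 in Sox17+/- liver, with both Sox17+/- arrays higher (1.16, SE 0.36, limma unadjusted p = 0.022). Its 2 other probe sets gave 1.15 and 0.11. Gadd45g, of the same family, overlapped at 229 and 207 against 273 and 217. Socs3, which blocks cytokine receptor signalling, had 450 and 643 against 909 and 684, and all 3 of its probe sets were higher on both Sox17+/- arrays. Rhob, a small GTPase induced early, had 2942 and 2017 against 3376 and 3194. Over the 18 members with several probe sets, 22 of the 30 other probe sets had the sign of the brightest. Among the 16 bright enough to be tested it was 14, the exceptions being 1 of Fosl2 and 1 of Nfkbiz.

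The higher signals were most pronounced on Sox17+/- 1. That array was the highest of the 4 for 20 of the 32 genes, or 62.5%, against 23% of all tested genes. It exceeded Sox17+/- 2 for 22 of the 32, or 68.75%, against 49.07% of all tested genes. The median difference was 0.37 between arrays numbered 1 and 0.33 between those numbered 2, with -0.03 and -0.02 over all tested genes. Of the 32 genes, 21 were higher and 5 lower in both comparisons of same-numbered arrays, and 6 were mixed. Of all 11685 tested genes, 2980 were higher and 3765 lower in both, and 4940 were mixed. Across the 32 genes the differences of the 2 comparisons correlated at r = 0.646, and across all 11685 tested genes at r = 0.242. Genes are not independent replicates, and the points share the same 4 arrays. For 17 of the 32 genes the wider of the within-genotype gaps exceeded the difference between genotypes, against 9207 of all 11685 tested genes.

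**Figure D3:**
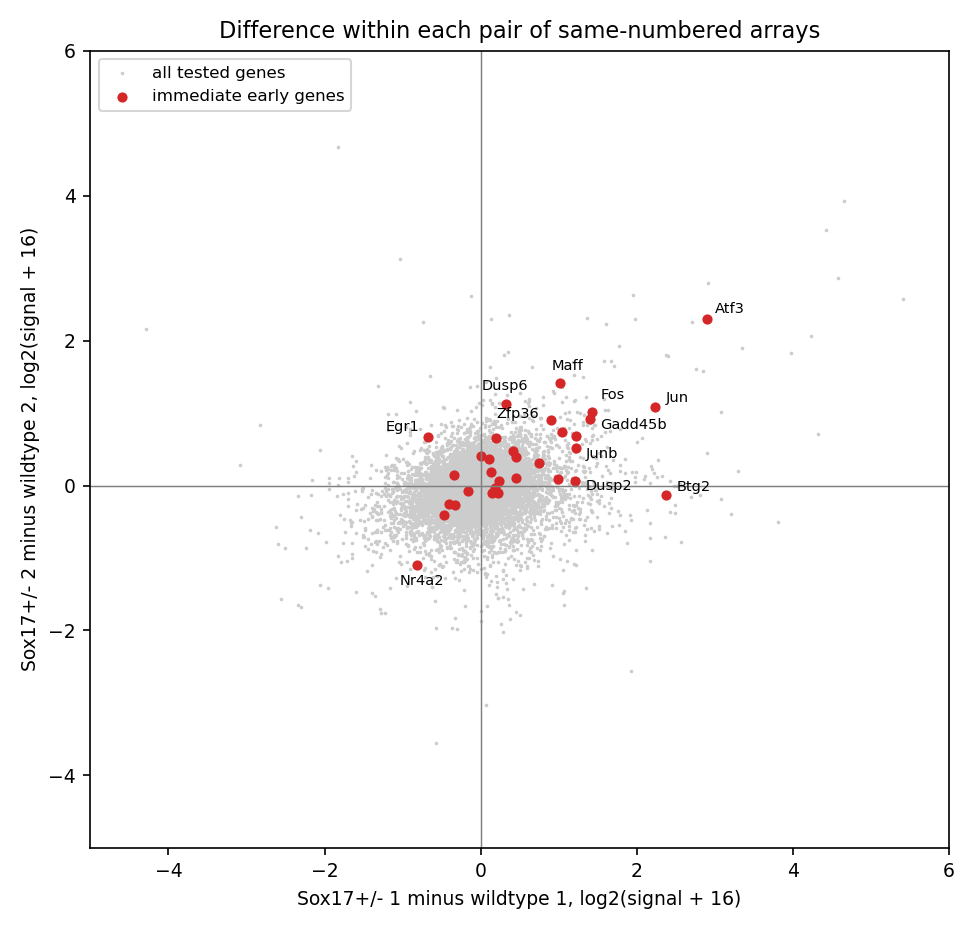
Sox17+/- minus wildtype on the log2(signal + 16) scale between the arrays numbered 1 (horizontal) and those numbered 2 (vertical), for 11685 tested genes (grey) and 32 immediate early genes (red, some named). Atf3 lies at 2.90 and 2.30, Nr4a2 at -0.82 and -1.09, and Btg2 at 2.38 and -0.13.

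Other genes of the primary response, outside the 38, also had mostly higher signals. That list too was chosen with earlier results of these data known. Of 50 found, 41 were tested, and 31 of them had a higher mean. Both Sox17+/- arrays lay above wildtype for 13 and below for 1, beside 14.5% and 18.6% of all tested genes, and the median difference was 0.33. None passed limma's adjusted threshold, and 5 were higher and 0 lower at an unadjusted p under 0.05, beside 1.61% and 2.54% of all tested genes. Plk3, Rgs1 and Sik1 were tested only through their Sox17+/- signals. Without these 3 genes, 11 of 38 lay above and 1 below, or 28.9% and 2.63%, and the median was 0.28. Of the 11279 genes bright in both genotypes, 14.3% lay above and 18.2% below. At an unadjusted p under 0.05, limma gave 3 of the 38 higher and 0 lower, beside 149 and 248 of those 11279. Tiparp, a target of several stress pathways, had 586 and 548 in wildtype and 1475 and 993 in Sox17+/- liver. Plk3, a stress kinase, had 17.3 and 87.6 against 265 and 194, Vegfa, the angiogenic factor, 626 and 659 against 1006 and 1237, and Plk2, a relative of Plk3, 427 and 408 against 809 and 624. These 4 had the smallest p of that list.

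Transcripts of the kinases and factors that relay the signal were centred near the rest of the table. Of 28 tested genes from growth factor receptors through RAS, RAF and MAP kinases to ELK and CREB factors, 5 lay above and 7 below wildtype on both arrays, or 17.9% and 25%, near the 14.5% and 18.6% of all tested genes, with a median difference of 0.05. The smallest p was that of Met, the receptor of hepatocyte growth factor, with 1225 and 1098 against 796 and 837, followed by Map2k6 (566 and 431 against 319 and 356). Rps6ka5, a kinase of CREB, had 210 and 183 against 277 and 239, and Mapk14, the p38 kinase, 2788 and 2803 against 1881 and 2533. These are transcript signals and carry no measure of phosphorylation.

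The inducible chaperone genes Hspa1a and Hspa1b were also higher on both Sox17+/- arrays, with signals of 44.4 and 65.1 in wildtype against 1283 and 923 for Hspa1a, which was also tested only through its Sox17+/- signals, and of 109 and 99.8 against 3151 and 1750 for Hspa1b. Differences of Dnajb1, Hsph1, Hspb1 and Hsp90aa1 lay between -0.12 and 0.20 on the log2 scale. Among all tested genes, 14.5% had both Sox17+/- arrays above wildtype and 18.6% had both below. Of the cell type markers, all 5 megakaryocyte genes tested were lower on both Sox17+/- arrays, with log2 differences of -0.37 to -0.24. Their summed signal was 26453 to 27864 in wildtype and 21926 to 22412 in Sox17+/- liver. Of 6 macrophage genes, Vsig4, Clec4f and Csf1r were lower on both Sox17+/- arrays (log2 differences -1.68, -0.83 and -0.17). Cd68, Adgre1 and Cd5l overlapped (0.20, -0.07 and 0.02). The macrophage genes summed to 15182 to 18349 in wildtype and 14926 to 15778 in Sox17+/- liver. Sums for the 6 neutrophil genes were 96234 to 167351 and 98104 to 166066, and for the 4 erythroid genes 63145 to 73895 and 61227 to 74514. Stellate and fibroblast genes summed to 8599 to 10240 and 9584 to 9663, with Des higher and Lum lower on both Sox17+/- arrays. Hepatocyte genes summed to 121188 to 202630 and 114414 to 198974, and cholangiocyte genes to 2886 to 3489 and 3260 to 3392. The part of these cell types, of heat shock and of the actin ratio in the immediate early values was not tested.

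**Figure D4:**
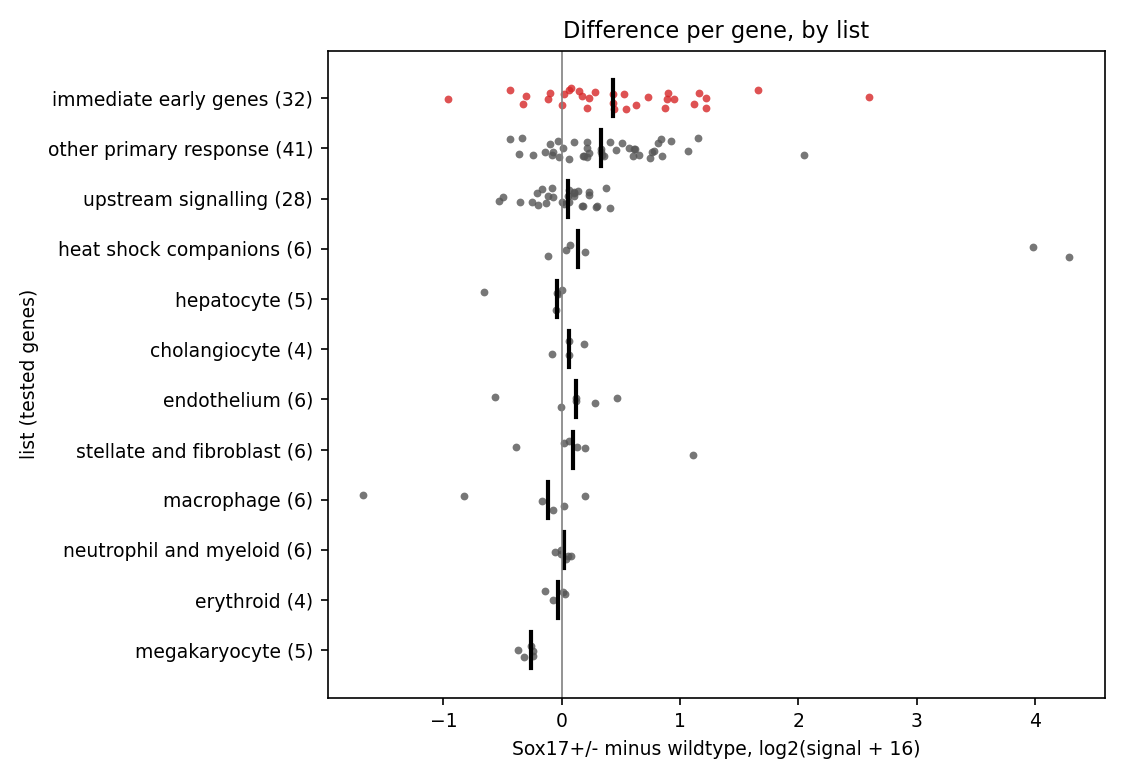
Sox17+/- minus wildtype on the log2(signal + 16) scale (horizontal) for each tested gene, by list (vertical, number of tested genes in brackets), with a black bar at each list's median. Medians are 0.43 for immediate early genes, 0.33 for other primary response genes and 0.05 for upstream signalling genes, and lie between -0.26 and 0.13 for the other lists drawn. Intestine, with Fabp2 alone tested (-0.37), and exocrine pancreas, with 0 tested, are not drawn.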

How the data were processed

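Total RNA from 4 fetal livers or liver pools was labelled with biotin and hybridised to 1-colour arrays. The authors deposited 1 intensity per probe set and array. It is a MAS5 signal, as the submitters' processing notes name that tool, and was not log-transformed. MAS5 uses a single array at a time, which leaves dim probe sets noisy, and scaling to a common mean removes differences in total RNA.

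Control probe sets (64) were removed. Among the other 45037, 34945 had 1 gene symbol in the platform annotation, 932 several and 9160 none. The brighter 50% by mean log2(signal + 16), 22519 probe sets, were tested in R 4.3.3 with limma 3.58.1 (lmFit, eBayes, two-sided, genotype as the only term), with Benjamini-Hochberg adjustment over all of them and a threshold of 0.05. Residual degrees of freedom were 2, and the prior added 3.24. With 2 arrays per genotype the smallest two-sided p of an exact permutation test is 0.333. The code was tested on simulated data.

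The members, their roles and the other lists were chosen with earlier results of these data known, so no list was given a p. Members whose genotypes did not overlap were to be given on every array, the rest by range or, for up to 10 of them, in full. A few cell type markers and probe sets that disagree were named after their values were seen. From each list of other response or signalling genes, 4 by smallest p were named. Other pseudocounts (1 and 64), filters, normalizations, priors, a replicate block, the mean over a gene's probe sets and leaving out each array were tried. Array precision is limited by the 2 arrays per genotype.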

Additional observations from a re-analysis of the deposited data

How the results depend on the processing

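No member passed the adjusted threshold under any alternative with a test. Over the whole table, 5 probe sets passed with median centring and 3 with a trended and robust prior. The median difference of the members was 0.41 to 0.47 under the other pseudocounts, filters, normalizations and the mean over probe sets, and 0.25 to 0.44 when 1 array was left out. Among the brighter 25% of probe sets, 12 of 18 members had both Sox17+/- arrays above wildtype, beside 16.1% of the 6975 genes tested there. With 1 array left out the count was 19 to 24, when 29.2% to 31.4% of all tested genes had that order. At an unadjusted p under 0.05, the whole table held 923 probe sets and 449 to 2197 under the alternatives. Choosing the brighter 50% by the mean linear signal was tried first and replaced by the mean log2(signal + 16) after results of both were seen, because the latter matched an earlier result of these data. The linear mean exchanges 179 probe sets and gave 32 members tested, 0 passing, a median of 0.43, 19 with both Sox17+/- arrays above wildtype, and a smallest adjusted p of 0.387 over the whole table against 0.297. Leaving out members bright in 1 genotype alone was also chosen after seeing the data, and gave 18 above and a median of 0.43.

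Deviations from the genotype mean correlated between arrays of the same number (r = 0.383 over 22519 probe sets), and these arrays share a code in the labels' array names, whose meaning is not stated. With the number as a replicate block, limma gave 0 members and 0 probe sets passing, a median of 0.43, and 11 members and 1693 probe sets at an unadjusted p under 0.05, against 8 and 923 without it.

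Of the 32 tested members, 24 kept their sign under every alternative and 8 did not, none of them called. Leaving out 1 array gave -0.04 to 2.29 for Btg2, -0.60 to 0.72 for Csrnp1, -0.06 to 0.10 for Dusp1, -0.52 to 0.52 for Egr1, -0.20 to 0.62 for Fosl2, -0.01 to 0.30 for Gadd45g, -0.24 to 0.05 for Klf10 and -0.26 to 0.03 for Srf. Quantile normalization gave -0.00 for Dusp1 and 0.01 for Egr1, median centring gave 0.04 for Egr1, and the mean over probe sets gave -0.22 for Fosl2, whose probe sets disagree. For the others the cause was not tested. The number of arrays and the noise of dim signals limit every member.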
